A study of Mus musculus with 21 samples.

Results

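*Saa3* and 8 genes that mark fibroblasts of melanoma lung metastases were followed through every cell of the series, inside and outside the fibroblast class. The 9 genes are *Saa3*, *Clu*, *Cxadr*, *Lgals7*, *Calca*, *Wt1*, *Upk3b*, *Msln* and *Lrrn4*, out of 32285 genes in the counts, and 10529 of 100359 cells held a UMI (unique molecular identifier, 1 captured RNA molecule) of at least 1 of them. They were chosen by their measured expression in fibroblasts, being high in a cluster made up mainly of lung metastasis cells, so their level in fibroblasts of metastases against other fibroblasts is a description and carries no test below. Their level in other cell types was not the ground of that choice, and only these levels were tested. Such levels are not independent of the choice, since they come from the same libraries and earlier results of these data were known.

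Fragments of the mouse melanoma line MT-ret were transplanted under the skin of mT/mG mice of 8 to 10 weeks of age and of both sexes, whose cells carry the membrane-bound red protein tdTomato from the ROSA26 locus. No Cre was used, so all host cells carry the red label and the transplanted melanoma cells (MM cells) carry none. The primary tumor was resected, lung metastases followed, and live host cells, sorted for tdTomato alone or also for absence of CD45 (a marker of leukocytes), were taken as the tumor microenvironment (TME). The groups are lung metastasis TME (4 libraries, 661 to 5166 cells and 2750267 to 27672199 UMIs each), primary tumor TME (4 libraries, 303 to 3123 cells and 1777036 to 17577997 UMIs), unchallenged lung of mice without a tumor (4 libraries, 1326 to 25966 cells and 6158006 to 53506609 UMIs) and sorted MM cells (2 libraries of either site). The content of lung metastasis replicate 5 goes against a sort for host cells, since 2079 of its 5166 cells (40.2%, with 63.8% of its UMIs) fell into the cluster of MM cells named below. In the other lung metastasis libraries MM cells were 0.510 to 1.97% of cells, and in primary tumor TME 0.252 to 3.30%. These shares count only the cluster named MM. Of the 6477 cells of primary tumor TME, 1470 lay in a fibroblast subcluster led by melanoma genes, given below. Neither labels nor methods say which libraries were depleted of CD45+ cells. Replicates 1-3 of a TME are 1 sample of several animals in the labels, and replicates 7 and 8 held the same values as replicates 5 and 6 and were counted once with them. The values of lung metastasis replicate 6 were also deposited under the name of a sorted MM library. These copies carry other mouse numbers, so which name belongs to the cells cannot be told apart. In replicate 6, 17 of 1036 cells were MM cells. Replicates 5 and 6 of lung metastasis and primary tumor come from the same mice, replicates 1-3 share part of their mice, and replicate 4 shares none. The libraries carry a run number that follows the replicate number, and the labels do not say what a run was. Run 1 holds replicates 1-3 and 1 unchallenged lung library (called the run 1 lung library here). Replicate 4 is in run 2, and replicates 5 and 6 are in run 3.

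Serum amyloid A3 (SAA3) is an acute-phase apolipoprotein made mostly outside the liver, and its gene is known to be switched on by interleukin 1, interleukin 6 and tumor necrosis factor through NF-kappaB and C/EBP transcription factors. *Upk3b* (uroplakin 3B), *Msln* (mesothelin, a surface protein that binds *Muc16*), *Lrrn4* (a leucine-rich repeat membrane protein) and *Wt1* (a zinc finger transcription factor) are known markers of mesothelium, the sheet of cells that covers the lung and lines the pleural cavity. *Clu* encodes clusterin, a secreted chaperone. *Cxadr* encodes the coxsackievirus and adenovirus receptor, an adhesion protein of epithelial tight junctions. *Lgals7* encodes galectin-7, a lectin of stratified epithelia such as epidermis, and *Calca* encodes calcitonin and calcitonin gene-related peptide (CGRP), which in lung is known from neuroendocrine cells and nerve fibers.

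*Saa3* is on chromosome 7 of GRCm38, at chr7:46711998-46715700 on the minus strand. The 226 bases before its annotated start, chr7:46715701-46715926 (GRCm38.p6, minus strand, sequence from RefSeq), are shown because they hold 4 copies of the C/EBP core motif TTNNGNAA, in capitals, read 5′ to 3′.
Saa3: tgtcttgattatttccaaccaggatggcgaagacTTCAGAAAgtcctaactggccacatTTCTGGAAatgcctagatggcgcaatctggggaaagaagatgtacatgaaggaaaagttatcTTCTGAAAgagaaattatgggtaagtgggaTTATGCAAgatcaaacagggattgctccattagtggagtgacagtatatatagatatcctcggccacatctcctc
The copies begin 192, 167, 105 and 75 bases before the gene start, and the reverse strand of these bases holds 0. Over 32851 RefSeq promoters of 300 bases, searched on both strands, 40.7% held at least 1 copy and 0.852% held at least 4. The promoters of *Lgals7*, *Calca*, *Upk3b* and *Lrrn4* held 1 copy each. A match to these letters is a description of the sequence and not evidence of binding. The other members lie at chr14:65968483-65981547 (*Clu*), chr16:78301489-78359774 (*Cxadr*), chr7:28863853-28866284 (*Lgals7*), chr7:114631478-114636357 (*Calca*), chr2:105126529-105173616 (*Wt1*), chr5:136038496-136046487 (*Upk3b*), chr17:25748613-25754378 (*Msln*) and chr2:132868305-132880891 (*Lrrn4*).

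Cells were clustered without the 9 genes and named by fixed markers as MM, ciliated, macrophage, endothelial, monocyte, fibroblast, neutrophil, alveolar type II (AT-2), NK, B, T and club cells. A cluster of 1865 cells led by *Col2a1*, *Ccn2* and *Cspg4* stayed unnamed. The largest endothelial cluster has the lymphatic marker *Lyve1* and no marker of the endothelial list among its 10 leading genes, while all 7 endothelial markers were raised in it, and it is counted as endothelial. Among fibroblasts, 1 subcluster of 260 cells had all 8 mesothelial markers raised that are not members (such as *Upk1b*, *Muc16* and *Krt19*), and 3 of 7 fibroblast markers. It is called mesothelial-like below. It held 240 cells of lung metastasis TME, 209 of them in replicate 5, 29 in replicate 6 and 2 in replicates 1-3, beside 13 cells of unchallenged lung and 6 of primary tumor TME. A smaller subcluster of 45 cells, 42 of them in unchallenged lung replicate 6, had 7 of the 8 mesothelial markers raised and also 5 of 5 club cell and 5 of 5 neutrophil markers, and was left unnamed. The other 5261 fibroblasts are not of 1 kind either. A subcluster of 1500 cells, 1470 from primary tumor TME, was led by melanoma genes such as *Dct* and *Tyr*, and subclusters of 881 and 705 cells from unchallenged lung were led by AT-2 genes (*Sftpc*) and ciliated cell genes (*Foxj1*). Another of 635 cells, all from unchallenged lung, had *Lrat* beside the monocyte genes *Ly6c2* and *F13a1* among its leading genes, and 1 of 136 cells carried all 6 pericyte or smooth muscle markers. Their part in the fibroblast values was not tested. Cell barcodes were shared by 87 pairs of libraries, at most 227 in a pair and 3 in the median pair.

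*Saa3* was unevenly spread over the lung metastasis libraries. Over all cells of a library its level was 60.6, 4.36, 53.6 and 170 CPM (UMIs of the gene scaled to 1000000 UMIs of the library or cell type) in replicates 1-3, 4, 5 and 6. In primary tumor TME it was 13.2, 24.7, 6.75 and 22.3 CPM, and in unchallenged lung 2.50, 0.844, 4.28 and 1.62 CPM in replicates 4, 5 and 6 and the run 1 library. Without MM cells the lung metastasis levels were 61.2, 4.42, 129 and 174 CPM (an alternative chosen after the data were seen), so that of replicate 5 was over 2 times as high. Replicate 4 of lung metastasis was close to the lung libraries. It held no mesothelial-like cell, but it had few fibroblasts of any kind, with 649 of its 661 cells outside that class. *Clu* ranged from 34.5 to 183 CPM in lung metastasis TME and from 56.4 to 227 CPM in unchallenged lung, with no separation. *Wt1*, which was at 5.75 and 18.8 CPM in lung metastasis replicates 5 and 6, was at 0 in replicates 1-3 and 4 and at 0.440 CPM at most in unchallenged lung.

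**Figure D1:**
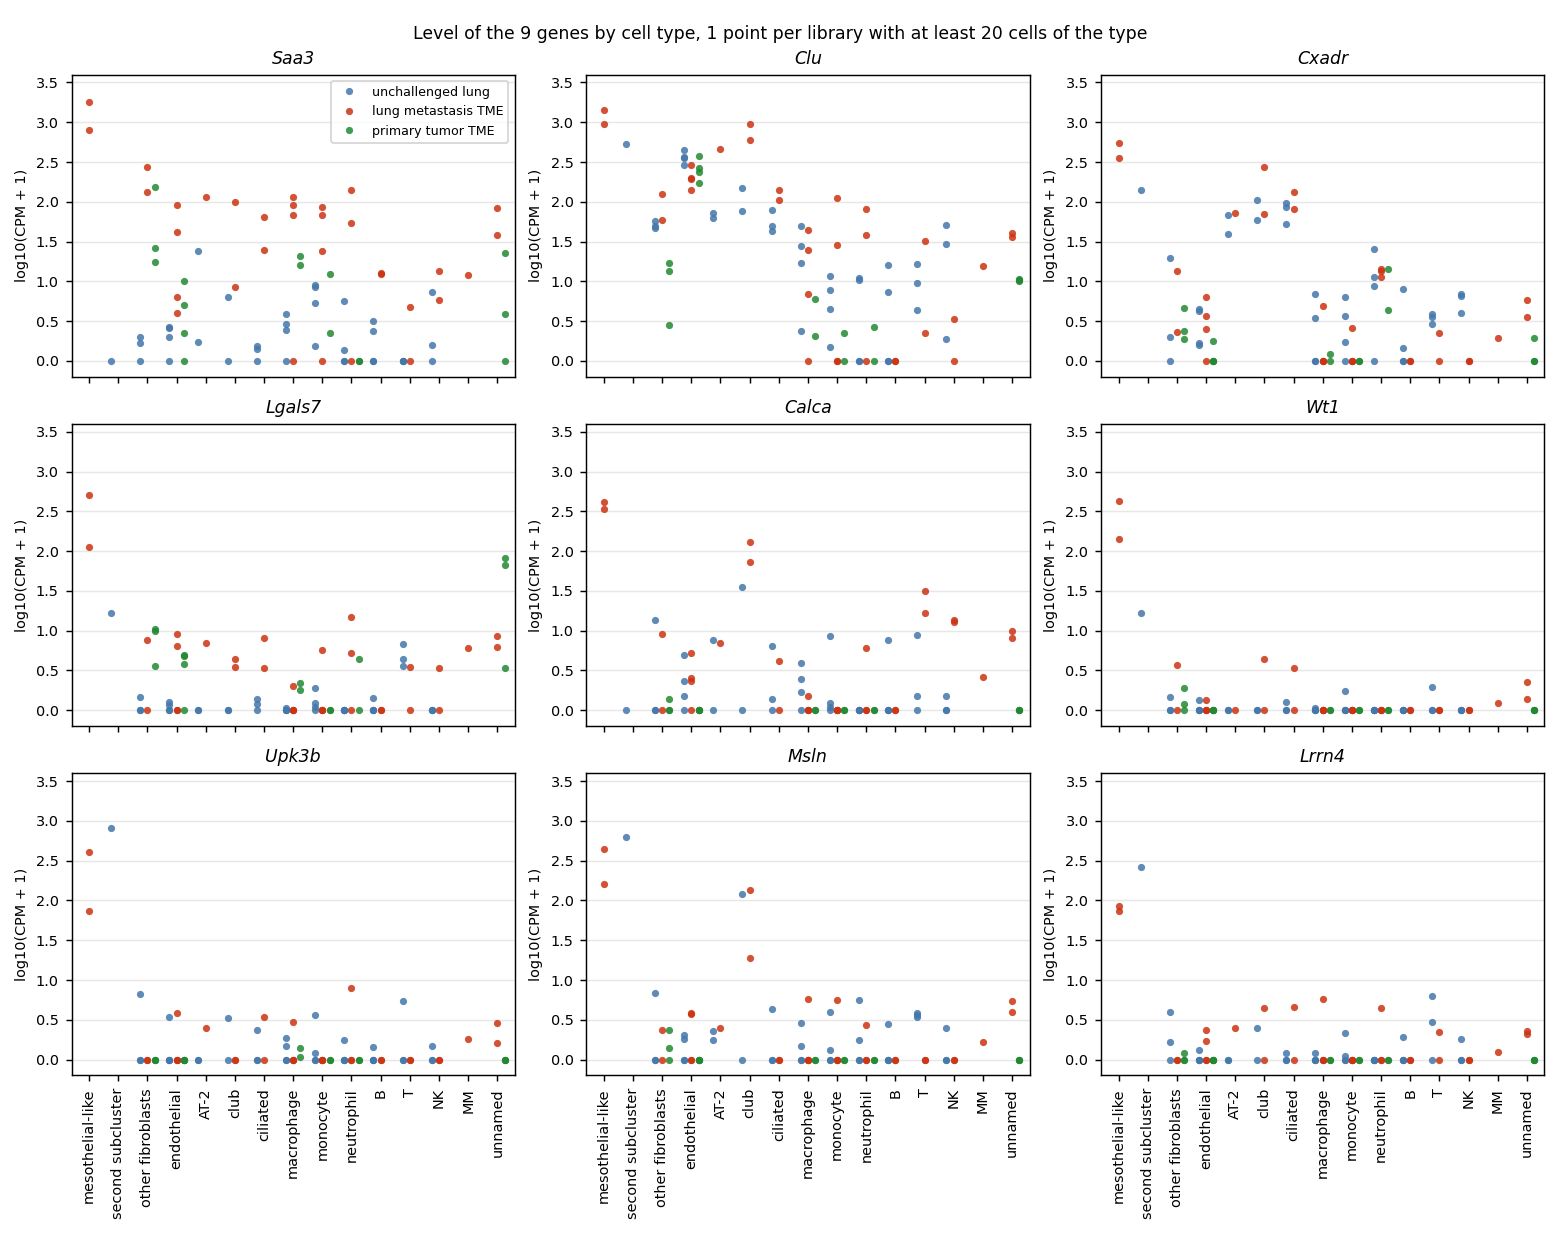
Level of each member (log10 of CPM plus 1, vertical axis) by cell type (horizontal axis), 1 point per library with at least 20 cells of the type, colored by tissue (lung metastasis TME, primary tumor TME, unchallenged lung). Mesothelial-like cells of lung metastasis stand highest for *Saa3*, at 791 and 1789 CPM, while *Clu* and *Cxadr* are also high in airway and endothelial or epithelial cells.

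The mesothelial-like cells of lung metastases carried all 9 genes as a population. *Saa3* was at 791 CPM in replicate 5 (833 UMIs in 92 of 209 cells) and at 1789 CPM in replicate 6 (364 UMIs in 23 of 29 cells). *Clu* was at 1416 and 943 CPM, *Cxadr* at 358 and 555 CPM, and *Calca* at 336 and 408 CPM. For these 3 genes the levels of the mice were nearer to each other than for *Saa3*. *Wt1* was higher in replicate 6, at 423 against 141 CPM. *Lgals7* (508 and 113 CPM), *Upk3b* (404 and 73.7 CPM) and *Msln* (445 and 162 CPM) were higher in replicate 5, and *Lrrn4* was at 83.6 and 73.7 CPM. With 1 library of over 100 cells and another of 29, no order between the mice was tested.

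The few mesothelial-like cells of unchallenged lung had a different balance of the same genes. In these 13 cells (6 each of replicates 5 and 6, 1 of the run 1 library, 66190 UMIs together) *Saa3* was at 0, which allows up to 23.1% of such cells with a UMI and up to 45.3 CPM, and so was *Calca*. The 240 cells of lung metastasis held 956 CPM of *Saa3* and 345 CPM of *Calca*. The mesothelial markers went the other way, with *Upk3b* at 2085 CPM in lung against 350 CPM in metastasis, *Msln* at 1541 against 397 CPM and *Lrrn4* at 1163 against 81.3 CPM. All 13 lung cells held *Upk3b*, 12 held *Lrrn4* and 10 held *Msln*, against 74, 48 and 49 of the 240 metastasis cells. *Wt1* (332 against 185 CPM), *Clu* (1435 against 1384 CPM) and *Cxadr* (438 against 388 CPM) were nearer to each other in the 2 tissues, and *Lgals7* was at 106 CPM in lung, from 7 UMIs in 3 cells, against 442 CPM. In lung replicates 5 and 6 taken alone *Upk3b* was at 2099 and 2065 CPM, *Msln* at 1200 and 1460 CPM and *Lrrn4* at 1237 and 1184 CPM, each above both metastasis libraries. For *Lgals7* they were at 225 and 27.5 CPM, on either side of metastasis replicate 6. With 6 cells in each of these lung libraries no test was made. The 42 cells of the unnamed subcluster with mesothelial markers in lung replicate 6 held *Upk3b* at 806 CPM, *Msln* at 620 CPM, *Lrrn4* at 264 CPM and *Clu* at 527 CPM, and 0 UMIs of *Saa3* and of *Calca* among 64480. The single cell of that subcluster in lung metastasis replicate 6 held 27 UMIs of *Saa3*. In the 6 mesothelial-like cells of primary tumor TME *Saa3* was found in 2 cells with 3 UMIs each.

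**Figure D2:**
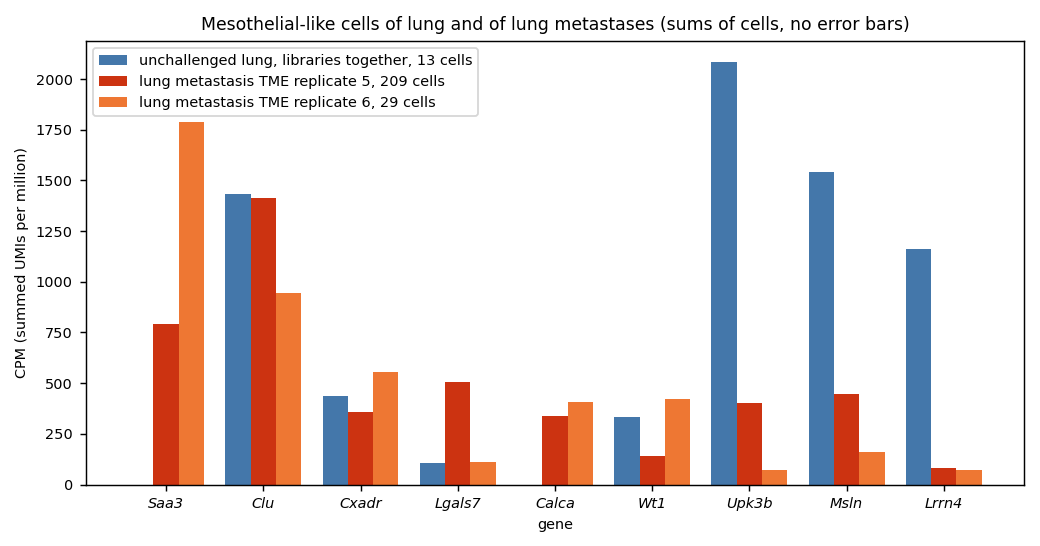
CPM of each member (bars, from 0) in mesothelial-like cells of unchallenged lung (13 cells) and of lung metastasis replicates 5 (209 cells) and 6 (29 cells). *Saa3* and *Calca* are at 0 in lung and at 336 to 1789 CPM in metastasis, and *Upk3b*, *Msln* and *Lrrn4* are higher in lung, at 1163 to 2085 CPM.

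Within the mesothelial-like cells the UMIs were concentrated in few cells. In replicate 5 the 21 richest of the 209 cells, chosen for each gene, held 79.5% of the *Saa3* UMIs, 88.1% of *Msln*, 83.1% of *Calca*, 79.5% of *Lrrn4*, 77.9% of *Upk3b* and 73.1% of *Lgals7*, but 53.6% of *Clu*, 42.2% of *Cxadr* and 41.9% of *Wt1*. The richest cell held 67 UMIs of *Saa3*, and in replicate 6 the richest held 110. *Saa3* was thus a gene of a minority of cells at high count in replicate 5, where cells with *Saa3* had a median of 1.5 UMIs, and more even in replicate 6, with a median of 7.

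No single cell held all 9 genes. Of the 209 cells of replicate 5, 8 held 8 members, 11 held 7, 40 held 3 and 14 held none. Of the 29 of replicate 6, 3 held 8 and all held at least 1. Co-detection was given at raw depth and after drawing 1000 UMIs from each cell, since a deeper cell holds more genes of any kind. At 1000 UMIs the most members in a cell were 6 in replicate 5 and 4 among mesothelial-like cells of replicate 6. In other fibroblasts of replicate 5 at raw depth, 164 of 223 cells held none and 11 held 2, and none held more.

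The genes fell into pairs that met more often, and pairs that met less often, than the product of their shares of cells. In replicate 5 at raw depth *Upk3b* and *Msln* were found together in 37 cells where the product gives 12.3, *Msln* and *Lrrn4* in 25 against 7.28, *Upk3b* and *Lrrn4* in 31 against 12.3, and *Lgals7* and *Msln* in 31 against 15.3. *Saa3* and *Calca* met in 34 cells against 23.3. *Calca* and *Msln* met in 3 against 9.89 and *Calca* and *Upk3b* in 13 against 16.7, so within this subcluster *Calca* was seldom in the cells with *Msln*. *Saa3* met *Wt1* in 41 cells against 41.4, *Lrrn4* in 17 against 17.2 and *Msln* in 19 against 17.2, which is what the shares alone give. At 1000 UMIs the same pairs stood out, with *Upk3b* and *Msln* in 19 cells against 5.10, *Lgals7* and *Msln* in 19 against 5.10, *Saa3* and *Calca* in 14 against 7.66, and *Calca* and *Msln* in 0 against 3.98. In replicate 6 *Upk3b* and *Msln* met in 5 of 29 cells against 2.17 at raw depth and *Calca* and *Upk3b* in 1 against 2.17, but *Calca* and *Msln* met in 3 against 2.79. Cells of 1 library share their source and the genes were chosen in these cells, so these counts are a description with no test.

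**Figure D3:**
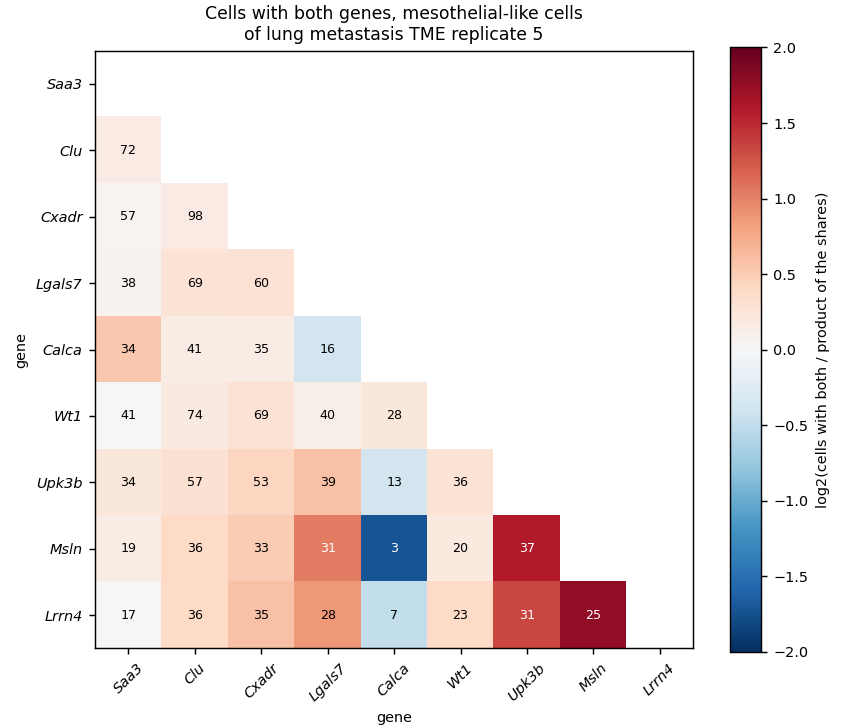
Cells holding both genes of a pair among the 209 mesothelial-like cells of lung metastasis replicate 5 at raw depth (numbers in the squares), colored by log2 of that count over the product of the shares of cells. *Upk3b*, *Msln* and *Lrrn4* form a block of pairs above the product (37, 31 and 25 cells), and *Calca* with *Msln* (3 cells) lies below it.

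Over all fibroblasts of a library, cells with *Saa3* held more of the other 8 members than cells without it. The genes were chosen as high in the same cluster, so this difference was built into the choice and is a description. At 1000 UMIs the difference was 0.694 members per cell in replicate 5 (1.48 against 0.783) and 0.469 in replicate 6 (1.40 against 0.931), a mean of 0.581 ± 0.159 (SD, n = 2). Inside the mesothelial-like cells alone it was 0.316 in replicate 5 and -0.792 in replicate 6, so the direction differed between the mice there. Mesothelial-like cells held 1.92 and 2.29 members per cell, and other fibroblasts 0.167 and 0.300. Without the mesothelial-like cells it was -0.117 in replicate 5 and 1.44 in the few fibroblasts left in replicate 6. The latter value rests on very few cells, since 3 of the 20 other fibroblasts there held *Saa3* at 1000 UMIs. The set also holds the 1 cell of the unnamed subcluster with mesothelial markers, which had 27 *Saa3* UMIs at raw depth. Over all fibroblasts it was 1.31 ± 0.333 with no thinning.

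Outside fibroblasts the 4 mesothelial markers were seldom found together. Of 142 cells in the series with at least 2 of *Wt1*, *Upk3b*, *Msln* and *Lrrn4*, 91 were mesothelial-like, 26 were in the unnamed subcluster with mesothelial markers, 5 were other fibroblasts and 20 lay outside the fibroblast class. That is 14.1% outside (95% exact interval 8.82 to 20.9%), among them 6 ciliated cells, 5 club cells and 4 monocytes. Of the 20, 16 were in unchallenged lung replicate 6, the largest library. With at least 3 of the 4 genes, 2 of 65 cells lay outside (3.08%), a T cell of lung replicate 4 and a club cell of lung replicate 6.

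*Saa3* of the lung metastasis TME lay both inside and outside fibroblasts. Fibroblasts held 1360 UMIs (54.1%), of which 1211 were in mesothelial-like cells, and other cell types held 1152 (45.9%). The fibroblast share rests on replicates 5 and 6, whose mesothelial-like cells held 833 and 364 UMIs. In replicates 1-3 and 4, 781 of 785 and 649 of 661 cells lay outside fibroblasts. Macrophages of replicates 1-3 held 182 UMIs. The cells differed in how much they carried. Among fibroblasts 55 cells held at least 5 UMIs, and outside fibroblasts 11 did, out of 774 with any. In replicate 5, 418 of the 449 *Saa3*-positive cells outside fibroblasts held a single UMI, and in replicate 6, 225 of 295.

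These single UMIs were spread over all cell types of a library, so each share has to be read beside the shares of types that are not known to make SAA3. At 1000 UMIs per cell, 23.9% of mesothelial-like cells of replicate 5 held *Saa3* (95% exact interval 18.3 to 30.3%). The interval of the 33 monocytes reached 20.2%. *Saa3* was chosen for its level in such cells, so these shares are a description. Other fibroblasts (7.14%), AT-2 cells (6.51%), monocytes (6.06%), macrophages (5.00%), neutrophils (5.00%), ciliated cells (4.79%), endothelial cells (4.38%) and the unnamed cluster (3.66%) had lower shares, and their intervals overlapped each other. Club cells (1.19%) and MM cells were lowest, the latter at 1.30% (0.861 to 1.89%), below the endothelial interval of 3.24 to 5.79%. Depth matters here, since at raw depth MM cells of that library (median 9170 UMIs) had a share of 8.71% and endothelial cells (median 1828 UMIs) one of 9.25%. In replicate 6, 57.1% of mesothelial-like cells held *Saa3* (37.2 to 75.5%), and all other types lay between 8.16 and 15.0% with overlapping intervals, that of the 20 other fibroblasts reaching 37.9%. Endothelial cells, at 10.0%, could therefore not be told apart from ciliated cells (8.16%), neutrophils (11.3%) or the unnamed cluster (10.5%). In sorted MM cells of the run 3 lung metastasis library, 0.0446% of MM cells held *Saa3* at 1000 UMIs.

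**Figure D4:**
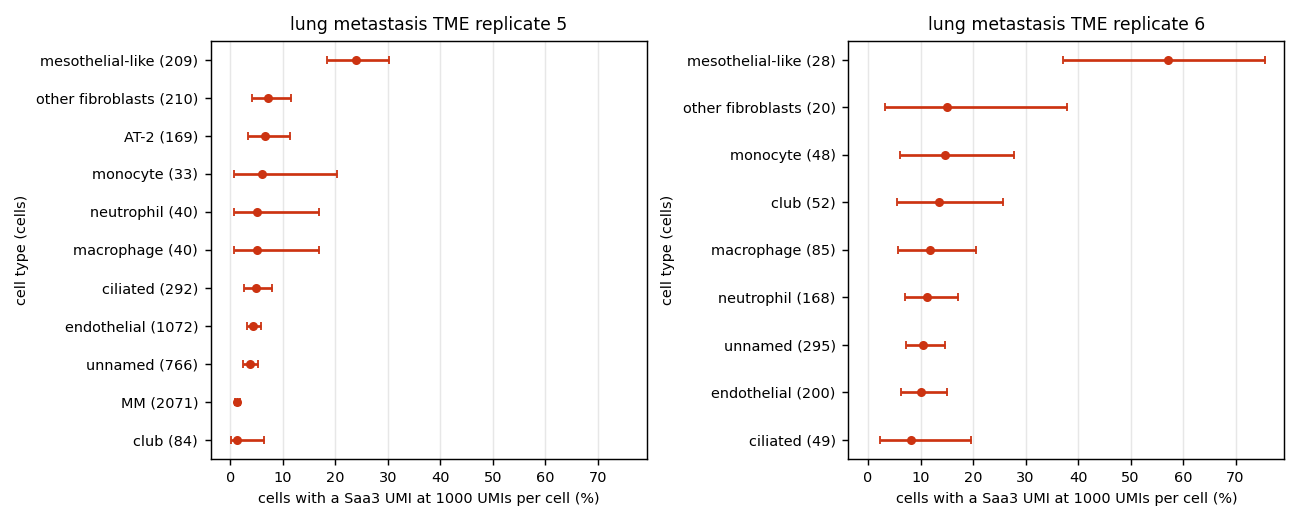
Share of cells with a *Saa3* UMI after thinning to 1000 UMIs (percent, horizontal axis) by cell type in lung metastasis replicates 5 and 6, with exact 95% intervals that cover counting error only. Mesothelial-like cells are highest at 23.9 and 57.1%, and other types lie between 1.19 and 15.0%.

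*Saa3* was also set beside the 6 members other than *Clu* and *Cxadr* (*Lgals7*, *Calca*, *Wt1*, *Upk3b*, *Msln* and *Lrrn4*), as its share of the UMIs of these 7 genes. The club cell class also held *Msln* and *Calca* (134 and 131 CPM in replicate 6), *Msln* in 12 and *Calca* in 5 of its 53 cells. In mesothelial-like cells of replicate 5 *Saa3* made up 29.2% (95% exact interval 27.5 to 30.9%). It was 68.2% in endothelial cells (60.7 to 75.2%), 66.7% in the unnamed cluster (58.5 to 74.1%), 69.8% in ciliated cells (53.9 to 82.8%), 55.9% in MM cells (50.5 to 61.3%) and 7.69% in club cells (1.62 to 20.9%). It was highest in other fibroblasts (87.7%), AT-2 cells (87.2%) and macrophages (92.3%), in each of which 1 cell held 34 of 100, 51 of 75 and 21 of 24 *Saa3* UMIs. In replicate 6 it was 58.8% in mesothelial-like cells (54.8 to 62.7%), 89.2% in endothelial cells (79.8 to 95.2%), 85.7% in ciliated cells (63.7 to 97.0%), 97.1% in macrophages (85.1 to 99.9%), 77.4% in the unnamed cluster (70.3 to 83.5%), 81.8% in neutrophils (72.8 to 88.9%) and 26.6% in club cells (18.6 to 35.9%). Outside fibroblasts at raw depth, 5.35% of cells with *Saa3* (3.45 to 7.85%) and 5.37% of cells without it held one of the other 6 members in replicate 5, and 7.12% (4.46 to 10.7%) and 8.28% in replicate 6. At 1000 UMIs these shares were 1.49% (0.181 to 5.29%) and 1.58% in replicate 5, and 3.96% (1.09 to 9.83%) and 2.39% in replicate 6. No difference was detectable at this depth, and in replicate 6 its direction turned with the thinning. The part of free RNA in these values was not tested.

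Some cells outside fibroblasts held *Saa3* at counts far above the rest of their type. In lung metastasis replicates 1-3, 1 macrophage held 102 of the 182 macrophage UMIs and the next held 37. The first of these had 6 of 9 macrophage markers and 0 of 7 fibroblast markers. In replicate 5, 1 AT-2 cell held 51 of 75 UMIs and had 5 of 6 AT-2 markers, and 1 macrophage held 21 of 24. In primary tumor TME replicate 4, 54 of 2210 macrophages held 261 UMIs, at most 65 in 1 cell, while 2 fibroblasts held 87 and 64 of the 168 UMIs of 190 fibroblasts, each with all 7 fibroblast markers. No endothelial cell of lung metastasis replicates 5 and 6 held more than 2. Doublets were not called, and the part of cells captured together in these counts was not tested.

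In unchallenged lung 307 of 312 *Saa3* UMIs lay outside fibroblasts, 30.1% of all in monocytes and 28.2% in AT-2 cells, with 31 of the 33 monocyte UMIs of replicate 4 in 1 cell. Of the 94 monocyte UMIs, 51 were in replicate 6, 33 in replicate 4, and 5 each in replicate 5 and the run 1 library. Of the 88 AT-2 UMIs, 87 were in replicate 6, and 1 of the 23 *Saa3* UMIs of replicate 5 was in an AT-2 cell.

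The other members had their own sources outside fibroblasts. *Clu* was a gene of many types. Fibroblasts held 41.8% of its UMIs in lung metastasis TME, 40.3% in mesothelial-like cells, and 22.9% without replicate 5. In unchallenged lung, where endothelial cells were at 293 to 447 CPM, they held 4.55%, and 1.73% without replicate 6. *Cxadr* was epithelial, at 50.9 to 94.8 CPM in ciliated cells, 57.5 and 105 CPM in club cells and 37.9 and 67.1 CPM in AT-2 cells of unchallenged lung, and at 80.0 and 132, 68.5 and 272, and 71.0 CPM in these types of lung metastasis. In endothelial cells of lung metastasis TME and unchallenged lung it was at 5.30 CPM at most. Fibroblasts held 56.5% of the *Cxadr* UMIs of lung metastasis TME, 56.3% in mesothelial-like cells, and 6.47% of those of unchallenged lung, or 3.61% without replicate 6. Of the 492 *Cxadr* UMIs of mesothelial-like cells of lung metastasis TME, 377 were in replicate 5.

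*Msln* in unchallenged lung replicate 6 was mainly a club cell transcript. Club cells of replicate 6 held 398 UMIs in 235 of 1295 cells (118 CPM), which is 57.1% of all *Msln* UMIs of the 4 lung libraries, and 13 mesothelial-like cells held 14.6%, or 72.1% without replicate 6. In replicate 5 the 49 club cells held 0 among 277156 UMIs, which allows up to 6.12% of such cells with a UMI, while 6 mesothelial-like cells held 32 of the 46 *Msln* UMIs. In club cells of lung metastasis *Msln* was at 17.8 CPM in replicate 5 (7 UMIs) and 134 CPM in replicate 6 (39 UMIs). *Upk3b*, *Lrrn4* and *Wt1* had 2.71, 3.82 and 0% of their lung UMIs in club cells. In lung metastasis TME mesothelial-like cells held 94.4% of the *Wt1* UMIs, 91.9% of *Upk3b*, 82.1% of *Msln* and 84.4% of *Lrrn4*. Without replicate 5 the share of *Msln* was 36.6%.

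*Calca* outside fibroblasts lay in several types, in part in few cells at high count. In unchallenged lung club cells held 116 of the 354 UMIs outside fibroblasts (32.8%), ciliated cells 81 (22.9%), monocytes 54 (15.3%) and endothelial cells 35 (9.89%), of which 28 were in 2 cells of replicate 4. All 116 of the club cells, 80 of the 81 of ciliated cells and 52 of the 54 of monocytes were in replicate 6, the largest library. In lung metastasis TME club cells held 66 of 188 (35.1%), the unnamed cluster 33 (17.6%), MM cells 31 (16.5%) and T cells 26 (13.8%). Of the 31 of MM cells 29 were in replicate 5, and of the 26 of T cells 25 were in replicate 4. In the club cell class of lung replicate 6 the 116 UMIs lay in 26 of 1295 cells, up to 30 in 1 cell. Fibroblasts held 70.3% of the *Calca* UMIs of lung metastasis TME, 69.1% in mesothelial-like cells, and 13.7% of those of unchallenged lung, which were all in replicate 6. By library, mesothelial-like cells held 77.6% of the 456 *Calca* UMIs of lung metastasis replicate 5 and 58.9% of the 141 of replicate 6. In lung metastasis replicate 4, where no mesothelial-like cell was found, 12 of 211 T cells held 25 of the 32 *Calca* UMIs of the library. These 12 cells held a median of 2 of 6 T cell markers, against 4 over all T cells there.

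*Lgals7* outside fibroblasts was low, but single cells held many copies. Fibroblasts held 76.9% of its UMIs in lung metastasis TME (76.2% in mesothelial-like cells), and 41.0% without replicate 5. In primary tumor TME they held 22.4%, and 42.6% without replicate 4 or 14.1% without replicate 6. In primary tumor replicate 4, 67 of the 69 UMIs of the unnamed cluster were in 1 cell that also held 3 of 5 keratinocyte markers, and in replicate 5, 16 of 18 were in 1 cell with 2 of 5. Most *Lgals7* UMIs of the unnamed cluster in primary tumor TME thus came from 2 cells with epidermal genes. In MM cells it was at 0.561 to 5.04 CPM.

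Macrophages of lung metastases held more *Saa3* than those of unchallenged lung. The level was 90.7, 0, 113 and 66.3 CPM in replicates 1-3, 4, 5 and 6 of lung metastasis TME, a mean of 67.6 ± 49.0 (SD, n = 4). In unchallenged lung it was 1.47, 1.94, 2.90 and 0 CPM in replicates 4, 5 and 6 and the run 1 library, a mean of 1.58 ± 1.21 (SD, n = 4). All metastasis libraries but replicate 4 were thus above all lung libraries, and replicate 4 had no UMI in 31 macrophages, which allows up to 9.68% of such cells with a UMI. The log2 fold change was 5.20 (SE 0.63, adjusted p = 0.00118 by edgeR's quasi-likelihood test with Benjamini-Hochberg adjustment over 11191 genes), and *Saa3* was among the 1.54% of genes called higher (1.92% in either direction, 0.384% lower). The balance of calls rests on single libraries, since 172 of 215 were higher, but 224 of 484 (46.3%) without the run 1 lung library and 96.6% of 87 without lung metastasis replicate 6. Without the macrophage richest in *Saa3* in each library the metastasis levels were 40.1, 0, 14.9 and 50.9 CPM and the lung levels 2.38 CPM at most. Other types of the same libraries held *Saa3* too. At 1000 UMIs 5.00 and 11.8% of macrophages of replicates 5 and 6 held it, against 4.38 and 10.0% of endothelial cells and 3.66 and 10.5% of the unnamed cluster. In replicates 1-3 it was 2.48% of macrophages against 0 of 92 endothelial cells. In replicate 6 macrophages were at 66.3 CPM, endothelial cells at 89.4, the unnamed cluster at 81.9 and ciliated cells at 64.2 CPM. The part of free RNA of a library in the difference between the tissues was not tested. The kinds of macrophage differed between the tissues. The cluster marked by *C1qa*, *C1qb* and *C1qc* held 56.2 to 89.5% of macrophages in lung metastasis and 6.90 to 60.0% in unchallenged lung. In the C1q cluster alone the log2 fold change was 6.06 (adjusted p = 0.000607 by edgeR's quasi-likelihood test). Between libraries of run 3 alone, 113 and 66.3 CPM stood against 1.94 and 2.90 CPM. With the replicate number as a block, 472 in place of 215 genes were called, *Saa3* among them (5.34, adjusted p = 0.000108 by the same test).

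Against primary tumor macrophages the difference in *Saa3* did not pass with the filter on low counts. The 2 primary tumor libraries with at least 20 macrophages, replicates 1-3 and 4, had 14.8 and 20.0 CPM, inside the range of the metastasis libraries. At these replicate numbers lung metastasis stood at 90.7 and 0 CPM, so the direction differed between them. The log2 fold change was 1.96 (SE 0.61, adjusted p = 0.198 by edgeR's quasi-likelihood test over 11191 genes, of which 0.697% were called, 0.599% as higher). With the replicate block, which moved the called genes from 78 to 159, it was 1.43 (adjusted p = 0.623 by the same test). Without lung metastasis replicate 4 it was 2.24 and passed (adjusted p = 0.0303 by the same test). *Clu*, the other member with enough counts in macrophages, had log2 fold changes of -0.41 (adjusted p = 0.872) against lung and 2.82 (adjusted p = 0.442) against primary tumor by edgeR's quasi-likelihood test. With no filter on low counts both passed against primary tumor, *Saa3* at 1.87 (adjusted p = 0.00249) and *Clu* at 2.73 (adjusted p = 0.0129) by the same test. In that fit 465 of 20897 genes were called, 336 of them higher.

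In endothelial cells the *Saa3* level of all 4 lung metastasis libraries was above that of all lung libraries. It was 5.27, 3.05, 41.0 and 89.4 CPM in replicates 1-3, 4, 5 and 6, and 1.58, 1.68, 0 and 1.01 CPM in the lung libraries of replicates 4, 5 and 6 and run 1. The groups did not overlap, but the first 2 metastasis values rest on 1 and 2 UMIs. Metastasis was likewise higher without overlap for 2.7% of the 9757 genes tested, which do not include *Saa3*. In primary tumor endothelial cells *Saa3* was at 3.99, 1.27, 0 and 9.05 CPM, overlapping with metastasis. Of the 9 members only *Clu* passed the filter on low counts in endothelial cells, and *Saa3* and *Clu* in macrophages. With no filter the log2 fold change of *Saa3* against lung was 4.82 (SE 0.71, adjusted p = 0.000129 by edgeR's quasi-likelihood test), and against primary tumor 3.15 (adjusted p = 0.0102 by the same test). Without the filter 682 of 20327 genes were called against lung, 570 of them higher. Against primary tumor 1214 were called, 700 of them higher. With the filter on and primary tumor replicate 1-3, 4 or 5 left out, *Saa3* was tested against primary tumor and did not pass (adjusted p = 0.0659 to 0.114 by the same test). The share of endothelial cells with *Saa3* at 1000 UMIs was 0, 0, 4.38 and 10.0% in lung metastasis, 0.196, 0.240, 0 and 0.257% in unchallenged lung, and 2.04, 0, 0 and 1.94% in primary tumor. A share of 0 allows up to 3.26 and 2.31% in lung metastasis replicates 1-3 and 4. The mean difference from lung was 3.42 percentage points (p = 0.429, exact permutation test, two-sided, 4 against 4 libraries, smallest possible p 0.0286) and that from primary tumor 2.60 points (p = 0.429, same exact permutation test). So at equal depth neither was beyond the spread between libraries, which replicates 5 and 6 set apart from the others. With no thinning the difference from lung was 8.97 points (p = 0.0286, exact permutation test). Within run 3 it was 7.07 points, with 2 against 2 libraries that cannot give an exact permutation p under 0.333. As given above, the intervals of the *Saa3* share overlapped between endothelial cells and the types of replicate 6 other than mesothelial-like cells.

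The *Clu* levels of endothelial cells lay the other way. It was at 195, 140, 198 and 286 CPM in lung metastasis replicates 1-3, 4, 5 and 6, a mean of 205 ± 60.2 (SD, n = 4), and at 293, 366, 352 and 447 CPM in the lung libraries of replicates 4, 5 and 6 and run 1, a mean of 364 ± 63.3 (SD, n = 4). All 4 metastasis libraries were below all 4 lung libraries, as was so for 4.59% of the genes tested. The log2 fold change of -0.78 (SE 0.26) did not pass (adjusted p = 0.131 by edgeR's quasi-likelihood test over 9757 genes, 3.3% called, 2.68% as higher). Against primary tumor, at 170 to 372 CPM, it was -0.38 (adjusted p = 0.451 by the same test, 11.6% of genes called, 6.74% higher and 4.9% lower). The endothelial clusters differ too, since the cluster that holds 80.4 to 100% of primary tumor endothelial cells held 5.26 to 45.9% of those of lung metastasis and 1.36% at most of lung. Without it the log2 fold change of *Clu* against lung was -0.60 (adjusted p = 0.484 by the same test). *Lgals7*, with 23 endothelial UMIs in replicate 5, was left out by the filter, and its libraries overlapped between the tissues.

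**Figure D5:**
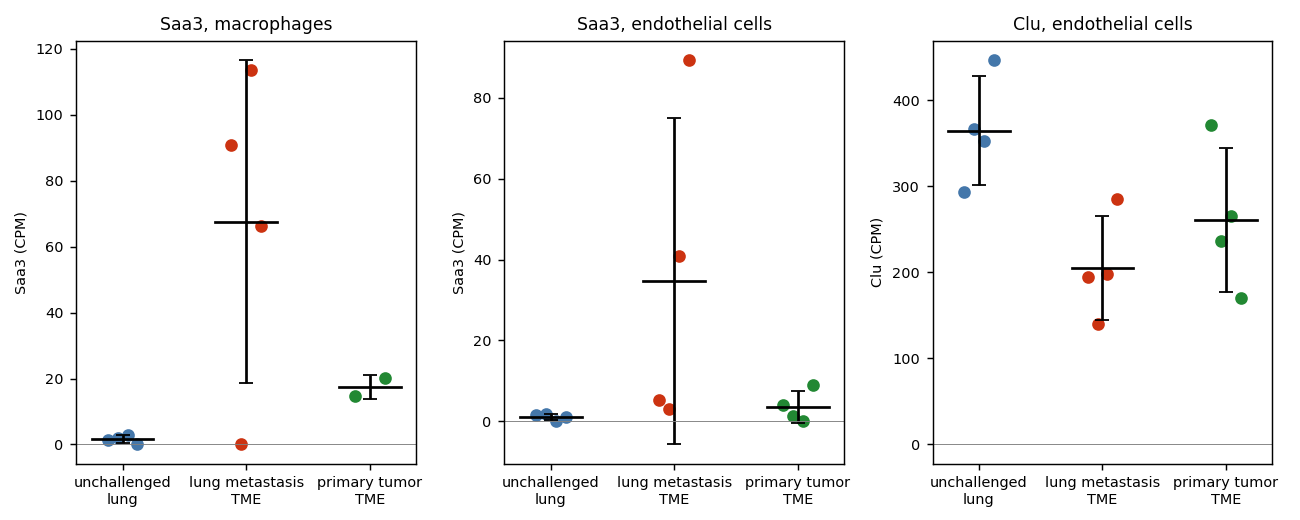
CPM of *Saa3* in macrophages, *Saa3* in endothelial cells and *Clu* in endothelial cells by tissue (points are libraries with at least 20 cells of the type, lines the mean, bars the SD). *Saa3* is at 0 to 113 CPM in lung metastasis macrophages against 2.90 CPM at most in lung, and endothelial *Clu* at 140 to 286 against 293 to 447 CPM.

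In AT-2 cells, the surfactant-making cells of the alveolus, only 1 lung metastasis library had at least 20 cells, so no test was made at that limit. In that library, replicate 5, *Saa3* was at 113 CPM, 51 of its 75 UMIs being in 1 cell, and in unchallenged lung at 0.746 and 22.9 CPM in replicates 5 and 6. *Clu* was at 461 CPM against 70.9 and 61.0 CPM, and *Cxadr* at 71.0 against 67.1 and 37.9 CPM. At a limit of 10 cells (2 against 3 libraries) edgeR's quasi-likelihood test called 0 of 7626 genes, with 675 at an unadjusted p under 0.05. The adjusted p was 0.557 for *Saa3* and for *Clu*, with log2 fold changes of 2.98 and 2.09 by that test.

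Related genes were described by fixed lists. Of the other serum amyloid A genes, *Saa1* had 1 UMI and *Saa2* and *Saa4* had 0 in the 209 mesothelial-like cells of lung metastasis replicate 5, and all 3 had 0 in replicate 6, so beyond that 1 UMI *Saa3* was the only serum amyloid A gene found there. Of genes of the acute phase and of the response to interleukins 1 and 6, *C3* (complement) was at 1850 and 3921 CPM in replicates 5 and 6, *Cebpb* (a C/EBP factor) at 200 and 565 CPM, *Il1r1* (the interleukin 1 receptor) at 235 and 408 CPM, *Osmr* (the oncostatin M receptor) at 130 and 305 CPM and *Socs3* at 52.2 and 265 CPM. All 19 genes of the list were higher in replicate 6, as *Saa3* was, and so were 55.7% of the 10917 genes with a mean of at least 5 CPM in these cells. *Il6* itself had 1 and 2 UMIs. *Muc16*, the partner of mesothelin, was at 109 and 19.7 CPM, higher in replicate 5 as *Msln* was. With 2 mice this is no more than a matched order. Among the CGRP receptor genes *Ramp2* was at 101 and 19.7 CPM and *Calcrl* at 18.0 and 14.7 CPM in these cells.

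In macrophages against unchallenged lung 3 of 16 tested genes of the interleukin list were higher (1.54% over all genes tested) and none lower (0.384%), namely *Ccl2* (log2 fold change 4.29), *Ccl7* (5.50) and *Cxcl2* (2.18), which encode chemokines for monocytes and neutrophils. The median of the list was 0.10 against -0.05 over all genes tested. Of 6 tested genes of the list of the SAA family and its receptors, which leaves out *Saa3*, none passed (median -0.83). Among 5 tested genes of the CGRP receptor list *Adm* (3.67) was higher, which encodes the peptide adrenomedullin and not a receptor. The receptor gene *Calcrl* (-2.45) was lower. Of 4 paralogs of members *Lgals1* (1.77) was higher. In endothelial cells against lung none of 14 interleukin list genes passed. None of 3 tested genes of the list of the SAA family and its receptors passed. *Saa3*, which is not on that list, was left untested there by the filter on low counts. Of 4 tested genes of the CGRP receptor list 1 was higher, the peptide gene *Adm* (7.42). Of 4 paralogs 2 were higher, *Lgals1* (5.53) and *Lgals3* (4.42). The share called higher over all genes tested was 2.68%. Against primary tumor, endothelial cells had 4 of 14 interleukin list genes lower (4.9% over all genes tested), *Ccl2* (-3.72), *Cebpb* (-2.02), *Socs3* (-1.51) and *Il1r1* (-1.20), with a list median of -0.45 against 0.06 over all genes. Higher, beside 6.74% over all genes tested, were *Calcrl* (2.37) and *Ramp2* (1.57), which together form an adrenomedullin receptor, and *Cd36* (2.28), a scavenger receptor that binds SAA. In macrophages against primary tumor *Ramp2* (4.21) was higher, and no gene of the other 3 lists passed. That call was lost in 7 of 12 alternatives, with the members kept in the clustering (adjusted p = 0.0582), in the C1q cluster alone (adjusted p = 0.157) and without any 1 library but lung metastasis replicate 4 (adjusted p = 0.0659 to 0.671, the highest without primary tumor replicate 4) by the same test. *Ramp2* was at 1736 to 4659 CPM in endothelial cells of lung metastasis libraries and at 0 to 104 CPM in their macrophages. These comparisons share the lung metastasis libraries, so their lists are not independent of each other. All of the genes named passed at an adjusted p below 0.05 by edgeR's quasi-likelihood test with Benjamini-Hochberg adjustment. With 1 library left out, in macrophages against lung *Cxcl2*, *Calcrl*, *Adm* and *Lgals1* missed the threshold in several cases (adjusted p up to 0.161, for *Adm* without lung metastasis replicate 6), and *Ccl2* and *Ccl7* in none. Over all alternatives *Calcrl* missed it in 7 of 14, *Lgals1* in 6 of 14, *Cxcl2* in 4 of 14 and *Adm* in 4 of 13. In endothelial cells against primary tumor *Il1r1*, *Ramp2*, *Cd36* and *Socs3* missed it in at least 1 case (up to 0.0995, for *Il1r1* without primary tumor replicate 4), and *Ccl2*, *Cebpb* and *Calcrl* in none. Over all alternatives *Il1r1* missed it in 6 of 14, *Ramp2* in 5 and *Cd36* in 4. In the tumor endothelial cluster alone *Ccl2* and *Socs3* still passed there, and *Cebpb*, *Il1r1*, *Calcrl*, *Ramp2* and *Cd36* did not (adjusted p = 0.0502 to 0.730). Against lung *Adm*, *Lgals1* and *Lgals3* passed in every such case, and *Lgals3* did not without the tumor endothelial cluster (adjusted p = 0.0777).

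Across 77 units of 1 cell type in 1 library with at least 50 cells, the gene most like a member differed from member to member. Among mesothelial-like cells only those of lung metastasis replicate 5 (209 cells) reached that limit, since replicate 6 had 29. *Wt1* was found in 16 of the 77 units, and *Upk3b* and *Lrrn4* in 27 each, so most units held no UMI of these genes. Whether the members share a pattern through mesothelial-like cells can therefore not be told from these units. By Spearman's rho of log2(CPM + 1) over 11893 genes, the gene most like *Saa3* was *Clca1* (0.55), that most like *Clu* was *Tspan9* (0.86), that most like *Cxadr* *6820408C15Rik* (0.78), that most like *Msln* the club cell gene *Bpifa1* (0.77), that most like *Lgals7* *Hmga2* (0.64), that most like *Calca* *Tfcp2l1* (0.60), that most like *Wt1* *Spon2* (0.55), and that most like *Lrrn4* its fellow member *Upk3b* (0.50), while *Cfap157* was most like *Upk3b* (0.49) among genes with a mean of at least 5 CPM, which *Lrrn4* does not reach. Between members rho ran from 0.13 (*Lgals7* and *Upk3b*) to 0.59 (*Cxadr* and *Msln*), and for *Saa3* it was highest with *Lgals7* (0.41). Units of 1 library share its depth and free RNA, so these values are a description.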

How the data were processed

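The counts deposited by the authors were whole UMIs per gene and cell, made per the labels with Cell Ranger 6.1.1 on GRCm38. The log-normalized table deposited with them was not used. Of 24 library names 5 held the same cells and values as another and were left out. Libraries whose name carries another number than the sample's title were matched by mouse, or as the only one left of their group, and are called by their run. Cells (100359) were clustered with Seurat 5.3.0 (2000 variable genes less the 9 members, 17 principal components, 20 neighbours, resolution 0.5; fibroblasts again with 12). A class needed 3 markers raised (log2 fold above 1, at least 10% of cells). Among such classes the one with most markers among the 10 leading genes was taken, an order set after the clusters were seen. No doublet caller was run. Instead, cells above the 99th percentile of UMIs were left out as an alternative.

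Counts of a type were summed per library (at least 20 cells) and tested with edgeR 4.0.16 (filterByExpr, TMM, quasi-likelihood test, Benjamini-Hochberg, threshold 0.05, 1 fit over 3 tissues). DESeq2 1.42.0 was an alternative. Exact permutation tests, exact 95% binomial intervals and the limits for a count of 0 (3 counts) were computed with scipy 1.17.1. Intervals and limits cover counting error only, and p-values the spread between libraries. To compare shares each cell was thinned to 1000 UMIs. Tests were tried on simulated data first. The 9 members are named in every comparison, other genes through fixed lists, and pattern genes by Spearman's rho over units of at least 50 cells among genes with a mean of at least 5 CPM. The members and lists were chosen with earlier results of these data known.

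Lung metastasis and unchallenged lung come from different mice and share a number only through the run. Replicates 5 and 6 of lung metastasis and primary tumor share mice, and replicates 1-3 in part. The correlations of deviations from the group means at the same number ran from -0.0734 to 0.185 in endothelial cells and from 0.0895 to 0.239 in macrophages against lung, and from 0.0365 to 0.151 and -0.00222 to 0.101 against primary tumor.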

Additional observations from a re-analysis of the deposited data

Results flagged for a closer look

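Of 40 groups of 4 libraries examined, 3 held a library far from the other 3, and chance alone gives about 1 in 20, a rate that need not hold where the other libraries are at or near 0, as for *Calca* and *Lrrn4*. All 3 are primary tumor TME replicate 6 over all cells. Its *Cxadr* level was 7.51 CPM (51 UMIs) against 0.512 to 1.55 CPM in the others. Its *Calca* level was 0.295 CPM against 0, and its *Lrrn4* level 0.589 CPM against 0 to 0.0569 CPM, which rest on 2 and 4 UMIs.

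*Clu* was lower in all lung metastasis libraries than in all lung libraries in endothelial cells, and higher than in all lung libraries in replicates 5 and 6, those with enough cells, in 3 other types. The difference between types was not tested. In these libraries *Clu* was also higher than in all lung libraries in monocytes (110 and 28.0 CPM against 10.5 CPM at most) and neutrophils (79.2 and 37.7 against 9.96 CPM at most), while replicates 1-3 were at 0 in both types and replicate 4 in monocytes. The log2 ratio of mean CPM in ciliated cells exceeded that in endothelial cells by 1.96, that in club cells by 3.64 and that in other fibroblasts by 1.69. Ciliated cells held 106 and 139 CPM of *Clu* in lung metastasis against 42.5 to 77.6 CPM in lung, club cells 596 and 963 against 75.8 and 147 CPM, and other fibroblasts 58.8 and 123 against 45.2 to 56.1 CPM. Of the 235 *Clu* UMIs of the 86 club cells of replicate 5, 1 cell held 107 and the next 34. The part of free RNA in these values was not tested. Other fibroblasts of lung lay largely in subclusters led by AT-2, ciliated or monocyte genes (875, 705 and 635 cells), which held 5, 0 and 0 cells of lung metastasis TME.

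*Lgals7* was found in the sorted MM libraries, which enter no comparison. In the lung metastasis library of replicate 4, which goes against its label with 279 MM cells of 638 (43.7%), it was at 0.687 CPM from 2 UMIs, 1 of them in an MM cell. In the other MM libraries 96.0 to 99.8% of cells were MM cells. There it was at 2.47 CPM in the lung metastasis library of run 3, 1.01 CPM in the primary tumor library of run 2 and 0.534 CPM in that of run 3. The highest unchallenged lung library had 0.499 CPM.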

How the results depend on the processing

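Of the values that answer a comparison 56 stayed within 1.5 times or on their side of the threshold under the alternatives, 33 moved and 1 passed anew, the endothelial *Saa3* share with no thinning. Of the values of single genes 263 stayed, 47 calls of list genes were lost, 3 of members passed anew, 2 turned, and the *Saa3* level of lung metastasis replicate 5 rose to 129 CPM without MM cells. Genes called in endothelial cells against lung numbered 322, and 612 with DESeq2, 682 with no filter, 31 without the tumor endothelial cluster (chosen after the data were seen) and 112 to 807 with 1 library left out. In macrophages against lung they numbered 215, and 536 with DESeq2, 819 with no filter, 139 with the members kept in the clustering, 472 with the replicate block, 534 in the C1q cluster alone (chosen after the data were seen) and 80 to 484 with 1 library left out. Of the 215, 80.0% were higher in metastasis, and 48.5% with no filter, 67.0% with DESeq2, 61.2% with the replicate block, 92.1% with the members kept, 53.4% in the C1q cluster and 46.3 (without the run 1 lung library) to 96.6% with 1 library left out. In endothelial cells against primary tumor they numbered 1136, and 326 in the tumor cluster alone and 743 to 1525 with 1 library left out. In macrophages against primary tumor they numbered 78, and 249 with DESeq2, 465 with no filter, 159 with the replicate block and 0 in the C1q cluster alone, where 342 genes had an unadjusted p under 0.05 by edgeR. With 1 library left out they ran from 0 (without primary tumor replicate 4, 561 at an unadjusted p under 0.05 by edgeR) to 91.

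The call of *Saa3* in macrophages against lung held with every library left out in turn (log2 fold change 4.98 to 5.97) and with DESeq2 (5.39), no filter and the replicate block (5.34). The replicate block gave 247 and 1111 genes in endothelial cells against lung and primary tumor and changed no member's call. Against primary tumor macrophages *Saa3* (1.87, adjusted p = 0.00249) and *Clu* (2.73, adjusted p = 0.0129) passed with edgeR and no filter, where 465 of 20897 genes were called. *Clu* in macrophages against lung turned to 0.20 without lung metastasis replicates 1-3 and 0.32 without lung replicate 6, within a range of -1.49 to 0.32 with 1 library left out. The share of endothelial cells with *Saa3* differed from lung by 8.97 points with no thinning, 1.83 at 500 UMIs and 1.29 to 4.62 with 1 library left out, and from primary tumor by 0.467 to 3.80. Other members per cell with *Saa3* differed by 1.31 with no thinning, 0.301 at 500 UMIs and 0.469 or 0.694 with 1 library. Cells with at least 2 of the 4 mesothelial markers lay outside fibroblasts at 5.71% when thinned, and at 3.08% with at least 3. The cause of these shifts was not tested. For AT-2 cells only the limit of 10 cells could be fitted, and the other alternatives were not run. Where few cells or UMIs stand behind a value, as in the 13 lung mesothelial-like cells, depth limits what could be seen.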
